A study of Homo sapiens with 12 samples.

Results

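Transforming growth factor-β (TGF-β) signaling was followed across 10 genes of the pathway in 2 head and neck squamous cell carcinoma (HNSCC) cell lines in which MUC1 was silenced. The genes were chosen by symbol, with earlier results of these data known, and number 10 of the 39368 symbols counted in each library: the ligand genes TGFB1, TGFB2, TGFB3 and INHBA, the latency protein gene LTBP1, the receptor genes TGFBR1 and TGFBR2, the signal transducer genes SMAD3 and SMAD7, and the target gene TGFBI. All 10 passed the filter on low counts in both lines. The lines, CAL27 and HSC3, are established and HPV-negative, and the cells used here, CAL27/tet-MUC1shRNA and HSC3/tet-MUC1shRNA, were selected with puromycin for a vector that expresses 1 shRNA against MUC1 when doxycycline (DOX) is added. The study asked which genes change in HNSCC cells when MUC1 is silenced. Cells of each line were treated for 7 days with 0.1% DMSO (vehicle) or with 500 ng/ml DOX, and poly(A) RNA-seq was performed on 3 libraries in each of the 4 groups. Vehicle and DOX cells both carry the shRNA vector, and libraries of cells with a control shRNA and DOX were not analysed here. Effects of MUC1 silencing, of DOX itself, of the DMSO in the vehicle and of expressing an shRNA therefore cannot be told apart. Per the study's methods RNA came from triplicate cultures, and whether these were grown on separate days is not given in the sources used here, so p-values measure the spread between these cultures.

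TGF-β ligands are secreted as latent complexes in which the mature dimer is held by its own propeptide, and latent TGF-β binding proteins such as LTBP1 tether the complex to the extracellular matrix. Once released, for example by integrins that pull on the propeptide, the ligand binds the type II receptor TGFBR2, which recruits and phosphorylates the type I receptor TGFBR1, and TGFBR1 phosphorylates SMAD2 and SMAD3. Activin A, a dimer of the INHBA product, signals through other receptors to the same SMADs, whereas SMAD7 is induced by the pathway and inhibits TGFBR1. In squamous epithelia TGF-β restrains proliferation and, in carcinomas, is known for driving epithelial-mesenchymal transition and invasion.

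Libraries of CAL27 cells held 92866845 to 126328662 counts and those of HSC3 cells 89730914 to 169065103, and the 10 genes held from 113 to 471 counts per library (TGFB3) up to 46968 to 111167 (TGFBI), with INHBA at 111567 in 1 HSC3 DOX library. Several counts can stand for 1 molecule: the estimated number of counts per molecule in CAL27 cells was 2.42 to 3.07 (vehicle) or 2.90 to 3.38 (DOX), and in HSC3 cells it was 4.19 to 7.45 (vehicle) or 8.98 to 17.3 (DOX), higher in every DOX library. All 10 squamous markers were detected in all 12 libraries, but their summed level over both lines was 6590 to 7400 CPM (counts scaled to the same total per library) with vehicle and 3160 to 3750 CPM with DOX. In each line 7 of the 10 fell with DOX and 1, EPCAM, rose at an edgeR adjusted p under 0.05. Of all genes tested, 21.8% fell and 22.6% rose in CAL27 cells, and 15.4% fell and 13.0% rose in HSC3 cells. Summed fibroblast markers in CAL27 cells were 13.6 to 14.2 CPM (vehicle) and 10.3 to 10.7 CPM (DOX) and in HSC3 cells 4.20 to 5.05 CPM (vehicle) and 5.97 to 9.34 CPM (DOX), with COL3A1 at 0 in every library. Endothelial markers summed to at most 15.4 CPM, with CDH5 the only one at 1 CPM or more in each library of a group, and leukocyte markers to at most 4.27 CPM. The part of these differences in the values below was not tested. The libraries are bulk RNA, in which fewer cells of a kind and less RNA per cell cannot be told apart.

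MUC1, the targeted gene, was downregulated in both lines. In CAL27 cells MUC1 was at 58.4, 53.1 and 54.3 CPM in the 3 vehicle libraries and at 2.92, 2.76 and 3.25 CPM in the 3 DOX libraries (log2 fold change -4.21, SE 0.0666, edgeR adjusted p = 1.6e-19). In HSC3 cells, with MUC1 already low, it was at 1.66, 1.97 and 1.64 CPM and at 0.31, 0.267 and 0.132 CPM (log2 fold change -2.88, SE 0.376, edgeR adjusted p = 2e-04). The HSC3 value rests on few counts of MUC1, with 162 to 196 per vehicle library and 16 to 46 per DOX library. The levels of the 2 lines are given on the same scale. These and all levels below are CPM after TMM normalization of the 12 libraries together, and fold changes are from edgeR quasi-likelihood fits within each line, with p-values adjusted by Benjamini-Hochberg over all genes tested.

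To show the sequence around the starts of the genes that rose in HSC3 cells, and of TGFB1, whose response turned between the lines, the RefSeq promoters (250 bases before to 50 bases after the start, GRCh38.p14, 5′ to 3′ on the gene's strand) are given. They lie at chr1:218345086-218345385 (plus strand) for TGFB2, chr7:41703041-41703340 (minus strand) for INHBA, chr3:30606351-30606650 (plus strand) for TGFBR2 and chr19:41353873-41354172 (minus strand) for TGFB1. Capitals mark GC boxes (GGGCGG, bound by SP1 family factors), an AP-1 element (TGANTCA) and an ATF/CREB form (TGANNTCA), each on either strand.
TGFB2: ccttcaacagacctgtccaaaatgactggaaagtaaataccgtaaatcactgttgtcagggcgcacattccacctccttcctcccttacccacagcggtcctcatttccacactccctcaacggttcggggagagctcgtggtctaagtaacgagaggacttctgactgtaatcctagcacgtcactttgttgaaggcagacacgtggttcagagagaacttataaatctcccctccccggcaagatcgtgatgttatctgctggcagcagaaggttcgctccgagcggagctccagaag
INHBA: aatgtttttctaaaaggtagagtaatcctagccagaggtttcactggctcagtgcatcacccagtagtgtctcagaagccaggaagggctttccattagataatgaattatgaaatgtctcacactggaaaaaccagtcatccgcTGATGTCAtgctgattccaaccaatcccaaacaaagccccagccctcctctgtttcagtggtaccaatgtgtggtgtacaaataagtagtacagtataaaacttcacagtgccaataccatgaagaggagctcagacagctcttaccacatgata
TGFBR2: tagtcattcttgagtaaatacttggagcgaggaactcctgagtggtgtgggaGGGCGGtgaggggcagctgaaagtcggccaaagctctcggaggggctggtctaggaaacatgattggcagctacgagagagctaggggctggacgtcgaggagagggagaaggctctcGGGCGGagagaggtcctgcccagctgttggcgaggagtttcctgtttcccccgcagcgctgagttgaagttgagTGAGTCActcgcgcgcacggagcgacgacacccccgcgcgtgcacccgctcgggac
TGFB1: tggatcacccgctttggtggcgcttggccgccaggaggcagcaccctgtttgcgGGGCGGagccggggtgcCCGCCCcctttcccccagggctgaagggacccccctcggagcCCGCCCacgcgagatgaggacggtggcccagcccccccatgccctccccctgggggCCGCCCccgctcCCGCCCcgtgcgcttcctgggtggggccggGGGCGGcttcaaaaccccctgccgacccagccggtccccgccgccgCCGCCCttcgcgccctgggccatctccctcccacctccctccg

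The 4 promoters differed in composition. That of TGFB1 was 77.3% G and C and held 7 GC boxes, that of TGFBR2 was 61.7% G and C and held 2 GC boxes and 1 AP-1 element starting 6 bases before the gene start, and that of INHBA was 43.3% G and C and held 1 ATF/CREB form 105 bases before the start. The TGFB2 promoter (51.7% G and C) held none of the motifs searched. The INHBA promoter was taken around the RefSeq start, which is not the gene's outermost start in the GENCODE annotation. Over the 27 RefSeq promoters of the 10 genes, a GC box was found in 8, an ATF/CREB form in 4, an AP-1 element in 2, and the palindromic SMAD element GTCTAGAC in none. The shares of all 35116 RefSeq promoters that held them were 45.0%, 11.5%, 7.71% and 0.202%. The number of promoters differed between the genes, and some promoters of a gene overlapped. By gene, the motifs were found in 5, 4, 2 and 0 of the 10. These matches describe letters and say nothing of binding, and the ATF/CREB form was added to the search after the sequences had been seen.

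With vehicle, the 2 lines expressed the pathway differently. HSC3 cells had more mRNA than CAL27 cells for TGFB1, INHBA, LTBP1, TGFBR1, TGFBR2 and SMAD7 and less for TGFB2 and TGFB3, all past a fold change of 2, while TGFBI and SMAD3 did not pass that fold. Thus 6 of the 10 genes were higher in HSC3 cells, against 13.2% of the 20694 genes tested, and 2 were lower, against 18.7%. The median log2 difference, HSC3 minus CAL27, was 1.5 over the 10 genes and -0.12 over all genes tested. INHBA had the largest difference of the 10 (log2 fold change 3.64, SE 0.073, edgeR adjusted p = 2.9e-15), with 24.1 to 27.1 CPM in the 3 CAL27 libraries and 311 to 330 CPM in the 3 HSC3 libraries. The line, its medium and its count table are the same division of the libraries and cannot be told apart.

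Per kilobase of exon, which allows genes to be compared, TGFBI was the highest of the 10 genes in both lines with vehicle, at 67.5 ± 1.36 CPM per kb in CAL27 and 119 ± 2.85 CPM per kb in HSC3 cells (SD, n = 3). In CAL27 cells it was followed by SMAD3 (22.6 ± 0.176 CPM per kb), TGFB2 (11.6 ± 0.225), TGFBR2 (10.8 ± 0.400), TGFBR1 (9.15 ± 0.366), TGFB1 (4.39 ± 0.281), INHBA (3.09 ± 0.180) and LTBP1 (1.33 ± 0.0544), each with libraries that did not overlap those of its neighbor. TGFB3 (0.676 ± 0.0416 CPM per kb) and SMAD7 (0.620 ± 0.0766) were lowest and overlapped. In HSC3 cells the order was TGFBI, TGFBR2 (46.9 ± 0.948 CPM per kb), INHBA (38.5 ± 1.19), TGFB1 (25.5 ± 2.21), TGFBR1 (24.9 ± 0.292), SMAD3 (21.4 ± 0.446), LTBP1 (3.93 ± 0.134), TGFB2 (2.46 ± 0.136), SMAD7 (1.88 ± 0.0423) and TGFB3 (0.261 ± 0.0494), with overlap between TGFB1 and TGFBR1 only. SMAD3 lay in different places of the 2 orders at close levels of its own (log2 difference -0.08, SE 0.0429, edgeR adjusted p = 0.13), and TGFBI was higher in HSC3 cells by 0.82 on the log2 scale (SE 0.0483, edgeR adjusted p = 5.6e-10).

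**Figure D1:**
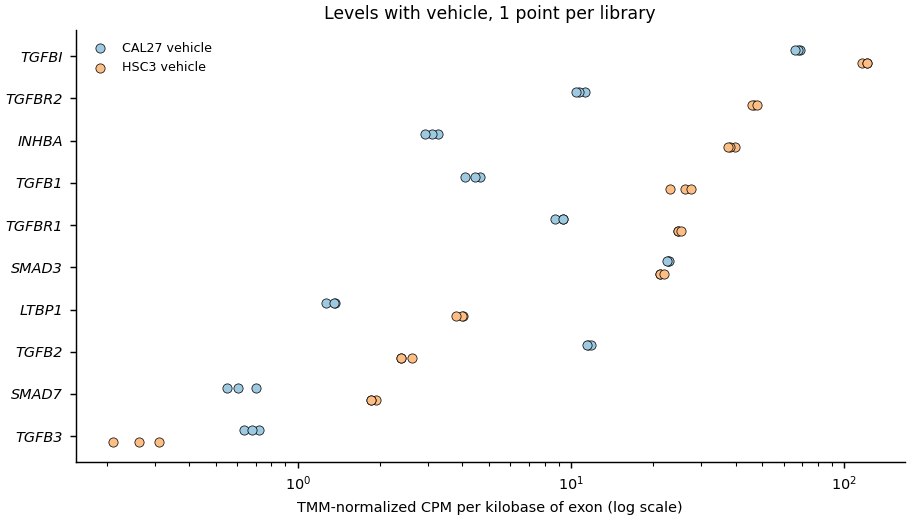
Levels with vehicle in CPM per kilobase of exon (horizontal axis, log scale) for the 10 genes (rows, ordered by their mean in HSC3 cells), with 1 point for each of the 3 CAL27 and 3 HSC3 vehicle libraries. SMAD3 lies close in both lines at 22.6 and 21.4 CPM per kb on average, INHBA lies farthest apart, and TGFB2 and TGFB3 are the genes clearly higher in CAL27 cells.

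With DOX, the pathway did not move in 1 direction. In CAL27 cells 5 of the 10 genes rose at an edgeR adjusted p under 0.05 (TGFB1, TGFB2, LTBP1, TGFBR2 and SMAD3), against 22.6% of the 19239 genes tested, and 3 fell (INHBA, TGFBR1 and TGFBI), against 21.8%. None of these changes passed a fold change of 2, which 1.31% of all genes did upward and 5.11% downward. In HSC3 cells 3 rose (TGFB2, INHBA and TGFBR2), against 13.0% of the 18021 genes tested, and 4 fell (TGFB1, LTBP1, TGFBR1 and TGFBI), against 15.4%. Of these, TGFB2 and INHBA rose past a fold change of 2 (1.58% of all genes) and LTBP1 fell past it (4.40%). The median log2 fold change of the 10 genes was 0.21 in CAL27 and -0.06 in HSC3 cells, and that of all genes tested was -0.01 in each.

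**Figure D2:**
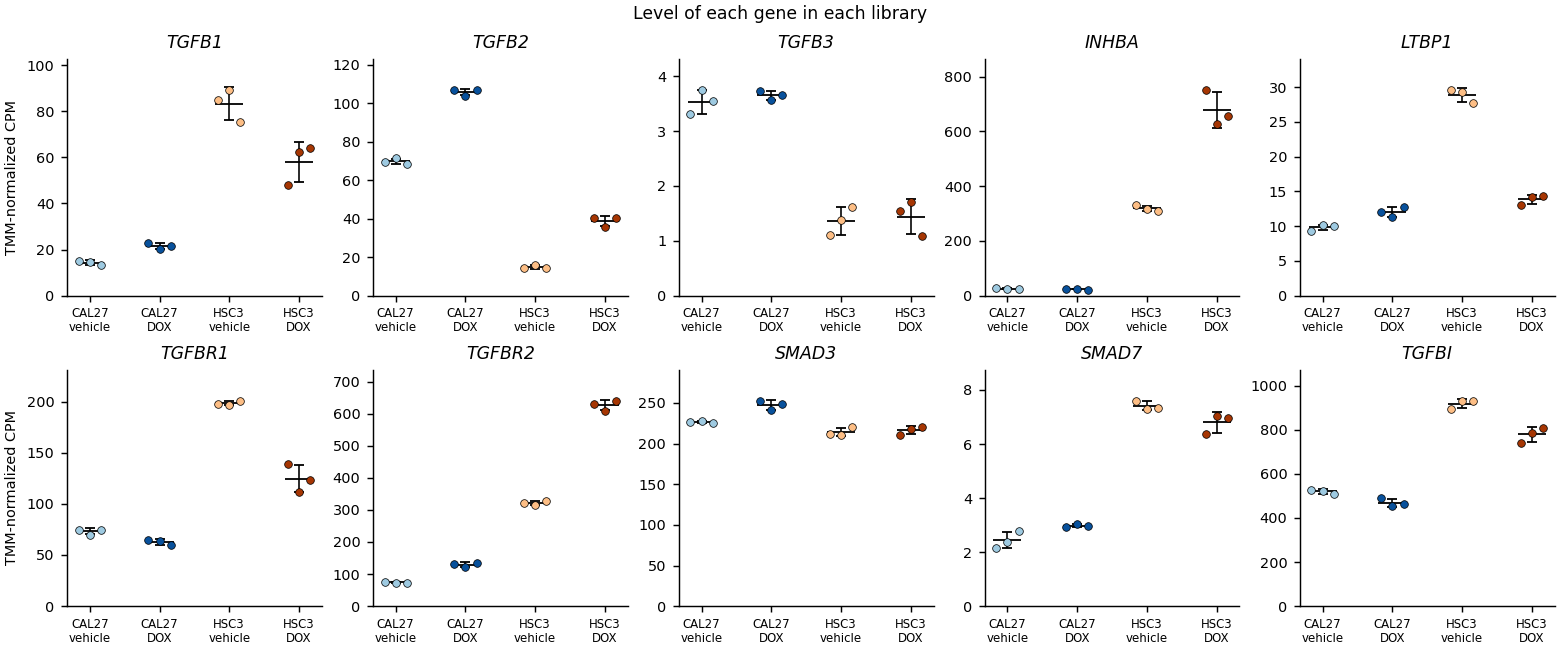
Level of each of the 10 genes in TMM-normalized CPM (vertical axes, linear and starting at 0) in the 12 libraries, with 1 point per library and bars at the mean ± SD of the 3 libraries of a group. In HSC3 cells the DOX libraries lie above all vehicle libraries for TGFB2, INHBA and TGFBR2 and below them for TGFB1, LTBP1, TGFBR1, SMAD7 and TGFBI. In both lines the TGFB3 points overlap.

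Among the ligands, TGFB2 (chr1:218345336-218444619, plus strand), which encodes TGF-β2, was upregulated in both lines. In CAL27 cells it was at 69.7, 71.4 and 68.7 CPM with vehicle and at 107, 104 and 107 CPM with DOX, a log2 fold change of 0.60 (SE 0.0388, edgeR adjusted p = 1.5e-10). In HSC3 cells it was at 14.4, 15.8 and 14.4 CPM with vehicle and at 40.6, 35.9 and 40.2 CPM with DOX, a log2 fold change of 1.38 (SE 0.0902, edgeR adjusted p = 1.5e-06). All DOX libraries lay above all vehicle libraries in both lines, and even with DOX every HSC3 library remained below every CAL27 library. The log2 fold change was higher in HSC3 cells by 0.79 (SE 0.0856, edgeR adjusted p = 1.2e-05 for the interaction of line and DOX). TGFB2 shares 22.7% of its exon bases with TGFB2-OT1 on the same strand, which was at 0 in all 12 libraries, and 11.6% with TGFB2-AS1 on the opposite strand. The use of strand in counting is not given in the sources used here, so reads of a gene and of its antisense partner cannot be told apart, but TGFB2-AS1 averaged 0.254 to 0.808 CPM over the 4 groups.

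TGFB1 (chr19:41301587-41353922, minus strand), which encodes TGF-β1, changed in opposite directions. In CAL27 cells TGFB1 rose from 15.2, 14.5 and 13.3 CPM to 22.9, 20.3 and 21.5 CPM (log2 fold change 0.59, SE 0.0632, edgeR adjusted p = 2e-07). In HSC3 cells, where the vehicle libraries held 85.1, 89.3 and 75.3 CPM, it fell to 48.2, 62.4 and 64.0 CPM (log2 fold change -0.52, SE 0.112, edgeR adjusted p = 0.0049). The groups did not overlap in either line, and the first HSC3 DOX library was the lowest of its group. The difference between the responses was -1.11 on the log2 scale (HSC3 minus CAL27, SE 0.141, edgeR adjusted p = 5e-05). HNRNPUL1, which encodes an RNA-binding protein and shares 6.6% of the TGFB1 exon bases on the opposite strand, was itself at 272 to 366 CPM on average and its log2 fold change was -0.03 in CAL27 and -0.28 in HSC3 cells (edgeR adjusted p = 0.59 and 0.0058).

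TGFB3 (chr14:75958097-75983011, minus strand), which encodes TGF-β3, was the least abundant ligand. CAL27 libraries held 3.31, 3.75 and 3.54 CPM (vehicle) and 3.73, 3.57 and 3.66 CPM (DOX), and HSC3 libraries 1.10, 1.37 and 1.62 CPM (vehicle) and 1.54, 1.70 and 1.08 CPM (DOX). The groups overlapped in both lines, and no difference was detectable at this depth (log2 fold change 0.05, SE 0.106, edgeR adjusted p = 0.77 for CAL27 and 0.08, SE 0.278, edgeR adjusted p = 0.88 for HSC3 cells).

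The mix of the 3 TGF-β ligand mRNAs followed from these levels. With vehicle, TGFB2 made up 69.5% ± 0.902 of their summed level per kb in CAL27 cells and TGFB1 26.4% ± 1.11, whereas in HSC3 cells TGFB1 made up 90.3% ± 0.764 and TGFB2 8.74% ± 0.486 (SD, n = 3). With DOX the CAL27 mix was 70.6% ± 0.808 TGFB2 and 26.6% ± 0.808 TGFB1, within the spread of the vehicle libraries for TGFB1. In HSC3 cells the TGFB2 share was 30.8%, 23.4% and 25.1% in the 3 DOX libraries, all above the 8.30% to 9.26% with vehicle, and the TGFB1 share was 67.8%, 75.4% and 74.1%. The summed level of the 3 genes in CAL27 cells was 16.6 ± 0.473 CPM per kb (vehicle) and 24.8 ± 0.702 (DOX), and in HSC3 cells 28.3 ± 2.28 (vehicle) and 24.5 ± 2.42 (DOX), where the libraries of the groups overlapped. These shares restate the levels of the genes and were not tested on their own.

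INHBA (chr7:41667168-41705834, minus strand), the activin A subunit gene, had the largest response difference in the direction of HSC3 cells. In HSC3 cells INHBA was at 330, 316 and 311 CPM with vehicle and at 752, 629 and 656 CPM with DOX, a log2 fold change of 1.09 (SE 0.0708, edgeR adjusted p = 1.5e-06). In CAL27 cells it was at 27.1, 25.6 and 24.1 CPM with vehicle and at 23.6, 23.9 and 22.1 CPM with DOX, a log2 fold change of -0.15 (SE 0.056, edgeR adjusted p = 0.041). The groups did not overlap in either line, but the CAL27 gap was narrow, from 24.1 to 23.9 CPM, and the CAL27 call was lost without vehicle library 1 (edgeR adjusted p = 0.16), vehicle library 2 (0.083) or DOX library 6 (0.11). The responses differed by 1.23 on the log2 scale (SE 0.0943, edgeR adjusted p = 5e-07). Per kb, INHBA was at 1.37 ± 0.101 of the summed TGF-β ligand level with vehicle and 3.39 ± 0.678 with DOX in HSC3 cells, against 0.186 ± 0.00781 and 0.113 ± 0.00656 in CAL27 cells (SD, n = 3). INHBA-AS1, on the opposite strand over 3.0% of the INHBA exon bases, averaged 0.438 to 4.18 CPM over the groups.

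**Figure D3:**
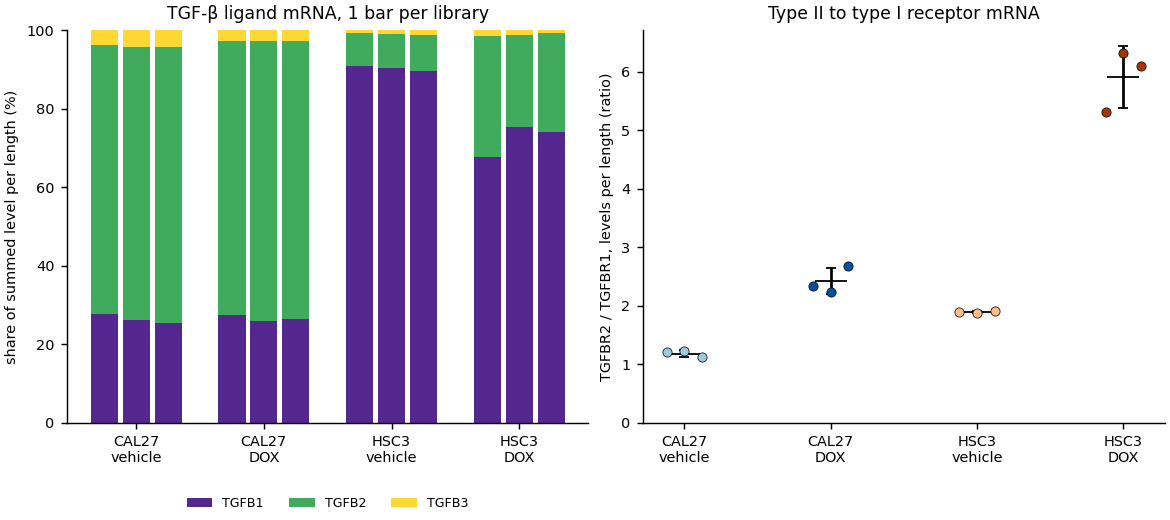
Left, shares of TGFB1, TGFB2 and TGFB3 in their summed level per kilobase of exon (vertical axis, %), with 1 bar for each of the 12 libraries, in which the TGFB2 share in HSC3 cells is 8.30% to 9.26% with vehicle and 23.4% to 30.8% with DOX. Right, the ratio of TGFBR2 to TGFBR1 levels per kilobase (vertical axis, from 0), with 1 point per library and bars at the mean ± SD of 3 libraries, in which every DOX library lies above the vehicle libraries of its line.

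LTBP1 (chr2:32946953-33399509, plus strand), whose product anchors latent TGF-β in the matrix, also turned between the lines. In CAL27 cells LTBP1 rose from 9.34, 10.1 and 10.0 CPM to 12.1, 11.3 and 12.8 CPM (log2 fold change 0.30, SE 0.0724, edgeR adjusted p = 0.002). HSC3 cells showed the reverse, from 29.6, 29.3 and 27.7 CPM to 13.1, 14.2 and 14.3 CPM (log2 fold change -1.06, SE 0.0906, edgeR adjusted p = 1e-05). The groups did not overlap in either line, and with DOX the lines, at 12.1 ± 0.775 and 13.9 ± 0.660 CPM (SD, n = 3), lay closer than with vehicle. The difference between the responses, -1.36 on the log2 scale (SE 0.11, edgeR adjusted p = 8.3e-07), was the largest in size among the 10 genes.

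The receptors moved in opposite directions and did so in both lines. TGFBR2 (chr3:30606601-30694142, plus strand), which encodes the ligand-binding type II receptor kinase, rose in CAL27 cells from 76.8, 73.1 and 71.5 CPM with vehicle to 130, 123 and 136 CPM with DOX (log2 fold change 0.81, SE 0.0436, edgeR adjusted p = 8.3e-12). In HSC3 cells it was at 320, 315 and 328 CPM and at 631, 609 and 641 CPM (log2 fold change 0.96, SE 0.0553, edgeR adjusted p = 6.8e-07). All DOX libraries lay above all vehicle libraries, and the responses differed by 0.15 (SE 0.0708, edgeR adjusted p = 0.15), so a difference between the lines did not pass the test.

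TGFBR1 (chr9:99104038-99154192, plus strand), which encodes the type I receptor kinase that phosphorylates SMADs, was downregulated. In CAL27 cells its levels were 74.9, 69.7 and 74.7 CPM with vehicle and 64.7, 63.9 and 59.5 CPM with DOX (log2 fold change -0.22, SE 0.0437, edgeR adjusted p = 0.00027). In HSC3 cells TGFBR1 fell from 198, 197 and 201 CPM to 139, 112 and 123 CPM (log2 fold change -0.68, SE 0.0746, edgeR adjusted p = 6.2e-05). The groups did not overlap, and the fall was larger in HSC3 cells by 0.45 in size (interaction -0.45, SE 0.0955, edgeR adjusted p = 0.0031). The ratio of TGFBR2 to TGFBR1 per kb in CAL27 cells was 1.20, 1.22 and 1.12 with vehicle and 2.34, 2.24 and 2.67 with DOX. The HSC3 ratio was 1.89, 1.87 and 1.90 with vehicle and 5.31, 6.32 and 6.10 with DOX. Per kb, TGFBR2 mRNA thus exceeded TGFBR1 mRNA in all 12 libraries and more so in each DOX library. In CAL27 cells with vehicle the excess depends on the exon lengths used. Before division by length, vehicle library 3 held 71.5 CPM of TGFBR2 and 74.7 CPM of TGFBR1.

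SMAD3 (chr15:67063763-67195173, plus strand), which encodes a SMAD that carries the signal to the nucleus, moved least among the genes that were called. In CAL27 cells SMAD3 was at 226, 228 and 225 CPM with vehicle and at 253, 241 and 249 CPM with DOX (log2 fold change 0.13, SE 0.0366, edgeR adjusted p = 0.0077), a call that was lost without vehicle library 3 (edgeR adjusted p = 0.053). In HSC3 cells it was at 212, 211 and 220 CPM and at 211, 218 and 221 CPM, and the groups overlapped (log2 fold change 0.01, SE 0.0568, edgeR adjusted p = 0.92). The sign of the HSC3 value turned with the scaling.

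SMAD7 (chr18:48919853-48950965, minus strand), which encodes the inhibitory SMAD and is itself a direct target of the pathway, was not called in either line. CAL27 cells held 2.17, 2.39 and 2.77 CPM with vehicle and 2.93, 3.05 and 2.96 CPM with DOX (log2 fold change 0.28, SE 0.126, edgeR adjusted p = 0.074). HSC3 cells held 7.61, 7.31 and 7.34 CPM with vehicle and 6.37, 7.05 and 6.98 CPM (log2 fold change -0.13, SE 0.122, edgeR adjusted p = 0.5). The groups did not overlap in either line, with all DOX libraries above vehicle in CAL27 and below in HSC3 cells, and the interaction was -0.41 (SE 0.166, edgeR adjusted p = 0.097). Without CAL27 vehicle library 3, the highest of its group, the CAL27 value was 0.37 and passed (edgeR adjusted p = 0.047).

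TGFBI (chr5:136028988-136063818, plus strand), which encodes a secreted matrix protein named for its induction by TGF-β, was slightly lower with DOX in both lines. In CAL27 cells TGFBI fell from 529, 523 and 509 CPM to 489, 455 and 462 CPM (log2 fold change -0.15, SE 0.0384, edgeR adjusted p = 0.0025). HSC3 levels fell from 894, 933 and 931 CPM to 742, 786 and 810 CPM (log2 fold change -0.24, SE 0.0592, edgeR adjusted p = 0.01), and this call was lost without vehicle library 2 or 3 (edgeR adjusted p = 0.052 in each case). The groups did not overlap, and the interaction of -0.09 (SE 0.0678, edgeR adjusted p = 0.43) did not pass the test.

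Over the 10 genes, the interaction was called as a higher response in HSC3 cells for TGFB2 and INHBA, 2 of 10 against 8.25% of the 20694 genes tested, and as a lower response for TGFB1, LTBP1 and TGFBR1, 3 of 10 against 12.3%. The median difference in response was -0.10 over the 10 genes and -0.02 over all genes. For TGFB1 and LTBP1 the 2 lines were each called in opposite directions. This was also so for INHBA, but its CAL27 call (edgeR adjusted p = 0.041) was lost under several alternatives. For TGFB2 and TGFBR1 the lines were called in the same direction with different sizes.

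**Figure D4:**
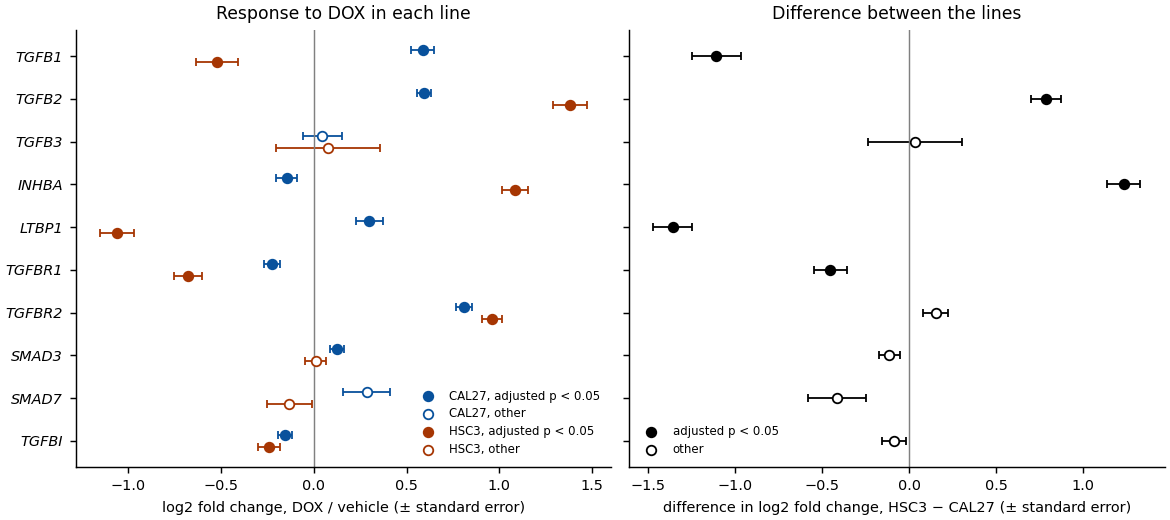
Left, log2 fold change with DOX (horizontal axis, ± SE) of the 10 genes in CAL27 and HSC3 cells, from the edgeR fit within each line. Right, difference between the lines in log2 fold change (HSC3 minus CAL27, ± SE). Filled points passed an adjusted p of 0.05. TGFB1 and LTBP1 lie right of 0 in CAL27 and left of it in HSC3 cells, INHBA the reverse, and TGFBR2 lies at 0.81 and 0.96.

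A further 73 genes of the pathway in 7 lists were examined in the same fits. In CAL27 cells 68 of them were tested, of which 20 rose and 29 fell, and in HSC3 cells 66 were tested, of which 20 rose and 20 fell. Over all genes tested, 22.6% rose and 21.8% fell with DOX in the CAL27 fit, and 13.0% rose and 15.4% fell in the HSC3 fit. Their median log2 fold change was -0.11 and -0.03, against -0.01 over all genes tested in each line.

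The other receptors and co-receptors held no gene that rose in either line. In CAL27 cells 7 of 9 tested fell, against 21.8% of all genes, among them ACVR1C (log2 fold change -0.40) and ACVR1B (-0.35), type I receptors for activin and nodal ligands, with edgeR adjusted p of 6e-05 and 4.5e-06. In HSC3 cells 4 of 9 fell, against 15.4% of all genes, namely TGFBR3, which encodes the co-receptor betaglycan (log2 fold change -1.40), ACVR1C (-0.79), BMPR1A, a type I BMP receptor (-0.58), and ACVR2B (-0.30), with edgeR adjusted p from 5.4e-05 to 0.017. The type II receptor TGFBR2 rose in each line and none of these 9 genes did. Of all genes tested, 22.6% rose in CAL27 and 13.0% in HSC3 cells, so no rise among 9 genes lies near the HSC3 share.

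The genes of latency and activation were called in both directions. Of 10 tested, 4 rose and 6 fell in CAL27 cells, and 3 rose and 6 fell in HSC3 cells. The shares of all genes tested that rose and fell were 22.6% and 21.8% in CAL27 and 13.0% and 15.4% in HSC3 cells. THBS1, whose product thrombospondin-1 can activate latent TGF-β, was by far the most abundant, with CAL27 cells at 1690 ± 109 CPM (vehicle) and 4110 ± 137 CPM (DOX) and HSC3 cells at 1570 ± 109 and 3550 ± 20.4 CPM (log2 fold change 1.28 and 1.18, edgeR adjusted p = 6.8e-14 and 4.9e-07). The others that rose in CAL27 cells were ITGB5 (0.87), FURIN, the protease that cleaves the TGF-β precursor (0.50), and LTBP3 (0.32), and in HSC3 cells FURIN (0.57) and ITGB5 (0.35). Among the genes that fell was ITGB8, the β8 chain of an integrin that activates latent TGF-β, from 416 ± 13.8 to 275 ± 16.9 CPM in CAL27 cells and from 101 ± 3.61 to 38.1 ± 6.25 CPM in HSC3 cells (log2 fold change -0.60 and -1.40, edgeR adjusted p = 1.3e-09 and 3.3e-06). FBN1, which encodes the fibrillin that LTBPs bind, fell by 0.66 on the log2 scale in CAL27 and by 1.5 in HSC3 cells (edgeR adjusted p = 1.1e-05 and 9.3e-07).

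The other ligands were divided, with 3 of 9 tested up and 3 down in each line. Of all genes tested, 22.6% rose and 21.8% fell in CAL27 cells, and 13.0% rose and 15.4% fell in HSC3 cells. In CAL27 cells BMP4 (log2 fold change 0.84), GDF15 (0.34) and GDF11 (0.18) rose, and BMP7 (-0.92), BMP2 (-0.68) and INHBB (-0.29) fell. In HSC3 cells INHBB, which encodes the activin B subunit, rose from 2.06 ± 0.415 to 7.26 ± 0.553 CPM (log2 fold change 1.81, edgeR adjusted p = 3.3e-05), as did BMP4 (0.89) and BMP2 (0.49), while GDF11 fell (-0.47). INHBE was called as lower there as well, at 1.73 ± 0.563 and 0.234 ± 0.160 CPM, and so was BMP7, with 26 to 30 counts per vehicle library and 0 to 3 counts per DOX library. Of the inhibin β subunit genes, INHBA and INHBB therefore rose in HSC3 cells and were lower with DOX in CAL27 cells, whereas INHBE was lower in HSC3 cells. The CAL27 call of INHBA was lost under several alternatives.

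Of the 6 other SMADs, 4 fell in CAL27 cells (SMAD6, SMAD1, SMAD9 and SMAD2, with log2 fold changes of -0.42, -0.37, -0.34 and -0.32) and 1 fell in HSC3 cells, SMAD2, the other SMAD that TGFBR1 phosphorylates. Of all genes tested, 21.8% fell in CAL27 and 15.4% in HSC3 cells, so the HSC3 count was near the share over all genes. SMAD2 was at 104 ± 1.45 and 83.3 ± 2.90 CPM in CAL27 cells and at 109 ± 6.13 and 67.2 ± 9.31 CPM in HSC3 cells (log2 fold change -0.32 and -0.71, edgeR adjusted p = 1.2e-06 and 0.00023). With vehicle, 1 of the 6 was higher in HSC3 cells past a fold change of 2, namely SMAD4, against 13.2% of all genes tested. The 2 that were lower, against 18.7%, were SMAD6 and SMAD9. SMAD4 was at 12.9 ± 0.452 CPM in CAL27 and 74.2 ± 1.62 CPM in HSC3 cells (log2 difference 2.53, edgeR adjusted p = 6.7e-13). With DOX, SMAD4 was not called in either line (log2 fold change 0.05 and -0.10, edgeR adjusted p = 0.61 and 0.47).

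Among the inhibitors, SKIL (log2 fold change 0.54 in CAL27 and 0.35 in HSC3 cells), a SMAD corepressor, and SMURF2 (0.42 and 0.40), a ubiquitin ligase for the receptors, rose in both lines, with edgeR adjusted p from 9.3e-09 to 0.0076. The list counted 4 up (with SKI at 0.28 and PMEPA1 at 0.14) and 1 down of 10 tested in CAL27 cells, and 3 up (with TGIF2 at 0.62) and 2 down of 9 in HSC3 cells. The shares over all genes were 22.6% up and 21.8% down in CAL27 and 13.0% up and 15.4% down in HSC3 cells. FST, which encodes the activin antagonist follistatin, fell from 130 ± 3.28 to 106 ± 7.24 CPM in CAL27 cells and from 501 ± 15.9 to 221 ± 22.5 CPM in HSC3 cells (log2 fold change -0.30 and -1.18, edgeR adjusted p = 2.6e-05 and 1.1e-06). The related activin antagonist gene FSTL3 fell in HSC3 cells (log2 fold change -1.21, edgeR adjusted p = 0.003). In HSC3 cells INHBA and INHBB mRNAs thus rose while FST and FSTL3 mRNAs fell.

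Genes that TGF-β is known to raise in epithelial cells were divided, with 9 up and 5 down of 20 tested in CAL27 cells and 10 up and 3 down of 20 in HSC3 cells. All genes rose and fell in 22.6% and 21.8% of cases in CAL27 cells and in 13.0% and 15.4% in HSC3 cells, so the falls in this list were near the share over all genes in both lines. Their median log2 fold change was 0.03 and 0.43. In HSC3 cells FN1, which encodes the matrix protein fibronectin, rose from 125 ± 1.70 to 585 ± 26.6 CPM (log2 fold change 2.22, edgeR adjusted p = 1.5e-08), whereas in CAL27 cells it was at 35.9 ± 0.259 and 36.5 ± 1.81 CPM (0.02, edgeR adjusted p = 0.73). CCN2, a matricellular protein gene, rose in both lines, from 4.80 ± 0.305 to 10.1 ± 1.07 CPM and from 35.0 ± 3.19 to 123 ± 1.12 CPM (log2 fold change 1.07 and 1.81, edgeR adjusted p = 5.8e-09 and 1.4e-07). MMP2, a matrix metalloproteinase gene of the same list, went the other way, from 2.76 ± 0.409 to 0.793 ± 0.0515 CPM and from 16.2 ± 1.41 to 3.72 ± 0.257 CPM (log2 fold change -1.80 and -2.13, edgeR adjusted p = 1.8e-08 and 7.5e-07). The others that fell in CAL27 cells were NEDD9 (-0.97), BHLHE40 (-0.32), JUNB (-0.31) and ITGA2 (-0.23), and those in HSC3 cells included TSC22D1 (-0.32). Several genes of this list also answer to signals other than TGF-β.

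The ID genes, targets of the related BMP signals, were lower in CAL27 cells with DOX for 3 of 4 tested, against 21.8% of all genes. ID1 fell from 66.6 ± 2.80 to 33.1 ± 4.55 CPM in CAL27 cells and from 11.0 ± 2.08 to 6.16 ± 0.397 CPM in HSC3 cells (log2 fold change -1.02 and -0.83, edgeR adjusted p = 3.9e-06 and 0.0017). ID3 (log2 fold change -0.50) and ID2 (-0.77) also fell in CAL27 cells, while ID2 was called as higher in HSC3 cells, with 24 to 30 counts per vehicle library and a wide 58 to 928 counts per DOX library. ID1 was thus the gene of this list that was called downward in both lines.

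**Figure D5:**
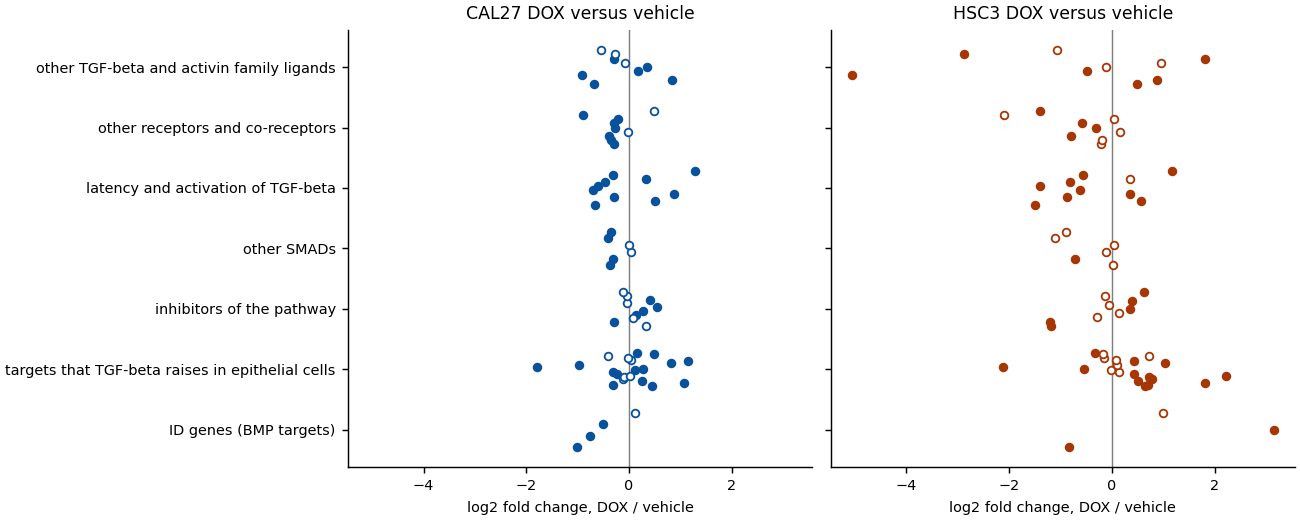
Log2 fold change with DOX (horizontal axes) of the tested genes of 7 pathway lists (rows) in CAL27 (left) and HSC3 cells (right), with 1 point per gene and filled points for an edgeR adjusted p under 0.05. No filled point of the other receptors or the other SMADs lies right of 0 in either line, and in HSC3 cells the target list spans from MMP2 at -2.13 to FN1 at 2.22. Of all genes tested, 22.6% rose in CAL27 and 13.0% in HSC3 cells.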

How the data were processed

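RNA-seq was performed on 12 libraries of 4 groups of 3. The authors deposited 1 table of whole-number counts per gene symbol for each line, not normalized. Per the study's methods and the submitters' processing notes, TruSeq Stranded mRNA libraries were aligned to GRCh38 with STAR 2.7.9a, and FastQC 0.11.9, Subread 2.0.1 and featureCounts are named. The counted annotation, strand setting and treatment of duplicated reads are not given in the sources used here. The CAL27 DOX columns are numbered 4 to 6 and their samples otherwise, so they were mapped to their group only. No 2 libraries of a group held identical values, and their chi-square per degree of freedom was 7.27 to 132. The highest values, 132 and 85.4, were those of the pairs with HSC3 DOX library 1, and the remaining HSC3 DOX pair was at 22. Library 1 of that group also had the fewest genes detected of all libraries (19128) and the highest estimated counts per molecule (17.3).

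Counts were analysed in R 4.3.3 with edgeR 4.0.16 (TMM, filterByExpr at minimums of 10 for a count and 15 for a total, robust glmQLFit, glmQLFTest), each line alone. The interaction and the vehicle comparison came from 1 fit of all 12 libraries. Calls were made at an adjusted p under 0.05, and also with a fold change above 2 (the vehicle comparison only so). Exon lengths and positions are from GENCODE v44, which held 38934 of the 39368 symbols, and promoters are from RefSeq. Levels from the joint scaling differed from scaling within a line by at most 0.86% (CAL27) and 1.0% (HSC3) in relative library scale. The number of counts per molecule was estimated from the frequency with which genes with an expected 8 to 16 counts had none, and counts divided by that number were an alternative. The fits were tested on simulated data. The 10 genes and the pathway and marker lists were chosen with earlier results of these data known. Of the pathway lists, the genes named are at most the 2 with the largest change per list and line among those called at a mean log2 CPM of at least 3, any that a count of 5 or fewer refers to, and their values in the other line. A gene of the target list and a motif searched are not reported here by name. Alternatives were DESeq2 1.42.0, its size factors, library totals, no filter, 1 joint fit, a fold change of 1.5, a replicate block and each library left out.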

Additional observations from a re-analysis of the deposited data

Results flagged for a closer look

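The response to DOX differed between the lines for 5 of the 10 genes by the interaction of line and DOX (edgeR, adjusted over all genes), given as HSC3 minus CAL27 on the log2 scale. Of the 20694 genes tested, 8.25% were called with a higher response in HSC3 cells and 12.3% with a lower one. TGFB1 differed by -1.11, rising in 3 of 3 CAL27 DOX libraries and falling in 3 of 3 HSC3 DOX libraries relative to all vehicle libraries of the line. LTBP1 differed by -1.36, with the same turn in direction. INHBA differed by 1.23, with all HSC3 DOX libraries above and all CAL27 DOX libraries below the vehicle libraries. The CAL27 fall of INHBA was small, and its call was lost under several alternatives. TGFB2 differed by 0.79, with DOX above vehicle throughout, and TGFBR1 by -0.45, with DOX below vehicle throughout. The estimated counts per molecule were 2.42 to 3.38 for CAL27 and 4.19 to 17.3 for HSC3 libraries. With counts divided by that number, the 5 differences kept their direction and passed the test.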

How the results depend on the processing

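Under the alternatives run for each comparison, the calls of TGFB1, TGFB2, LTBP1, TGFBR1 and TGFBR2 in both lines, of INHBA in HSC3 cells, of the 5 interactions and of the vehicle comparison kept their direction and their side of the threshold. INHBA in CAL27 cells, besides the libraries named above, was lost with no filter (edgeR adjusted p = 0.054) and in 1 fit over all 12 libraries (0.16). The interaction of MUC1 was 1.31 and not called with counts divided by counts per molecule (edgeR adjusted p = 0.097). Uncalled values near 0 turned sign: with each library left out in turn, TGFB3 ranged from -0.01 to 0.08 in CAL27 cells (-0.01 without vehicle replicate 1), from -0.06 to 0.24 in HSC3 cells (-0.06 without vehicle replicate 1 or DOX replicate 2) and from -0.10 to 0.21 in the interaction (-0.09 and -0.10 without those replicates), and SMAD3 in HSC3 cells from -0.01 to 0.03 (-0.005 without vehicle replicate 2, -0.01 without DOX replicate 3, and -0.01 with library totals).

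With 1 fit over all 12 libraries, 2746 genes rose, 2337 fell and 568 fell past a fold change of 2 in CAL27 cells, against 4351, 4203 and 984, and 545 rose and 1237 fell past it in HSC3 cells, against 284 and 793. With a fold change of 1.5 in place of 2, 714 genes rose and 1848 fell in CAL27 cells, 798 and 1514 in HSC3 cells, 3 of the 10 genes rose in CAL27 cells and 2 fell in HSC3 cells. Leaving out libraries moved the genes that rose in HSC3 cells between 1514 (without vehicle replicate 2) and 3268 and those with a higher response in HSC3 cells between 1336 and 2614 (without DOX replicate 1). The cause was not tested. Library totals in place of TMM moved the median vehicle difference of all genes from -0.12 to -0.39, and that of SMAD3 from -0.08 to -0.35. The replicate block could be fitted in HSC3 cells only: 3 of the 10 genes rose and 4 fell, as without it, and over all genes 1955 rose and 2523 fell. Same-numbered HSC3 libraries deviated from their group means with correlations of -0.20, 0.35 and -0.35, and differently numbered ones with -0.44 to 0.48. These values gave no sign of pairing by number, but 3 libraries per group are too few to settle whether the cultures were paired. No paired analysis was possible in CAL27 cells or for the interaction because the CAL27 DOX columns carry other numbers. Of the 10 genes, depth limits TGFB3 and SMAD7 most, with 113 to 471 and 259 to 950 counts per library.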
